A study of Oryza sativa Japonica Group with 18 samples.

Results

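The genes described here were chosen by name: the dehydrins RAB16A, RAB16B, RAB16C, RAB16D and RAB21, the late embryogenesis abundant (LEA) gene OsLEA3, and the abscisic acid (ABA) synthesis genes OsNCED3, OsNCED4 and OsNCED5. The 9 names were looked up as symbols or synonyms in the gene table, with or without the prefix Os, and joined to probe sets, the groups of short probes that read 1 transcript on the array. This gave 5 genes on 6 probe sets, out of 17905 genes and 57194 probe sets in all. RAB21, which is another name for RAB16A, has 2 probe sets, and the stronger one was taken as its main probe set. OsNCED3 is in the gene table without a probe set, and the names OsNCED4, OsNCED5 and RAB16A were not matched, so the enzymes of ABA synthesis named here were not analysed. All 6 probe sets were among the 25165 with the highest mean signal that entered the tests.

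The arrays carry RNA from roots of Nipponbare rice, a japonica cultivar. Seedlings grew in hydroponic culture for 2 weeks and were then moved to K+-free solution (LK) or moved to solution with 1 mM K+ (CK). Roots were taken 6 h, 3 d and 5 d later, with 3 arrays in each of the 6 groups and 5 seedlings pooled for each array. The K+-free solution lacked K2SO4, as stated in the methods, and CK arrays were made at every time. The RNA came from all cells of the roots, so fewer cells of a type and less RNA per cell cannot be told apart.

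ABA is the plant hormone of drought, salt and seed maturation. Its synthesis is limited by NCED enzymes, which cleave carotenoids, and it binds PYL receptors. The receptors then block clade A protein phosphatases (PP2C), which frees SnRK2 kinases to activate bZIP transcription factors. These factors bind ABA-responsive elements in front of target genes, among them those for dehydrins and other LEA proteins. Dehydrins and LEA proteins are very hydrophilic and are thought to protect membranes and proteins in cells that lose water. The rice RAB16 genes, named for their response to ABA, are standard markers of that pathway, and OsLEA3 codes for a group 3 LEA protein that accumulates under drought and salt. In the gene table (assembly ASM3414082v1), RAB16D, RAB16C, RAB16B and RAB21 follow each other in this order on chromosome 11, with 2 other genes between RAB16C and RAB16B, and OsLEA3 lies on chromosome 5.

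Array medians over all probe sets lay between 22.1 and 23.4 units. Log2 signals of the arrays of a group correlated with r from 0.986 to 0.996 over the tested probe sets. Lsi1 and Lsi2, silicon transporter genes of the root, read at least 3654 units on every array. Neither was called at 6 h or 3 d, and at 5 d Lsi2 was lower in LK roots (log2 difference -0.20, adjusted p = 0.024), as were 12.8% of all tested probe sets. Of the photosynthesis genes, used as marks of shoot or greening tissue, 7 had a probe set. Their summed signal was 2239 to 3052 units on CK and 3011 to 3685 units on LK arrays at 6 h, 4660 to 6585 and 5362 to 6869 at 3 d, and 5730 to 6639 and 7079 to 8400 at 5 d. Of 2 Rubisco small subunit genes, RBCS1 had group means of at most 6.72 units, under the floor of 10 used in the tests, and OsrbcS had group means of 107 to 514 units and was 4.23-fold higher in LK roots at 5 d (log2 difference 1.93, adjusted p = 0.010). Of the 6 tested photosynthesis genes, 0 were called at 6 h, 1 was higher in LK roots at 3 d and 4 were higher at 5 d, where 0.27%, 8.5% and 10.5% of all tested probe sets were called higher. The part of these transcripts in the values below was not tested.

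After 3 d and 5 d without K+, transcripts of RAB21 and RAB16B were more abundant in roots, by 2.26-fold to 3.43-fold, and OsLEA3 was 1.46-fold higher at 5 d. RAB16C had higher means at both times without passing the test, and RAB16D did not pass at any time in the comparison of LK with CK. At 6 h none of the 5 genes was called, and RAB16D, RAB21 and RAB16C had lower means in LK roots. A gene is called here when its limma p, adjusted by the Benjamini-Hochberg method over the 25165 probe sets, is under 0.05. At 6 h 0 of 5 genes were called, against 0.529% of all tested probe sets, and 1 gene (RAB16D, lower) had an unadjusted p under 0.05. At 3 d 2 of 5 genes were called higher, against 8.5% of all tested probe sets, and at 5 d 3 of 5 were called higher, against 10.5%. The genes were chosen with earlier results of these data known, so these counts do not test for an excess of calls. None of the 5 was called lower at 3 d or 5 d, against 5.75% and 12.8% of all tested probe sets. The median log2 difference of the 5 genes (LK minus CK) went from -0.59 (6 h) to 1.11 (3 d) and 1.45 (5 d), where the medians over all tested probe sets were -0.00068, 0.043 and -0.031. The 3 medians are the values of RAB16C, and leaving out single arrays moved all of them. Without CK replicate 3 at 3 d, the median of that time was 0.39. At 6 h it was -1.10 without CK replicate 1, -0.38 and -0.26 without CK replicates 2 and 3, and -0.32 and -0.73 without LK replicates 1 and 2. At 5 d it ran from 1.14 without LK replicate 3 to 1.71 without LK replicate 2. With log2 of signal plus 32 the medians were -0.35, 0.67 and 1.02, and with a floor of 50 units 0, 0.59 and 1.15.

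RAB21 is the best known of the rice dehydrin genes and its transcript is induced by ABA and by water loss. At 6 h its main probe set read 34.1, 89.8 and 81.3 units on the CK arrays and 37.1, 43.5 and 38.9 on the LK arrays. At 3 d the CK arrays read 80.1, 56.4 and 34.0 units, whereas LK arrays read 192.7, 173 and 219. At 5 d it read 104.5, 78.7 and 129 units in CK and 322, 234.5 and 405 in LK roots. All LK arrays lay above all CK arrays at 3 d and at 5 d, as for 18.3% and 19.3% of all tested probe sets. The groups overlapped at 6 h, where the first CK array was the lowest of that time. The mean rose from 56.8 ± 23.0 to 195 ± 23.0 units at 3 d (SD, n = 3), 3.43-fold, with a log2 difference of 1.86 ± 0.33 (SE) and an adjusted p of 0.00089. At 5 d it rose from 104 ± 25.3 to 320.6 ± 85.5 units, 3.08-fold, with a log2 difference of 1.62 ± 0.33 (SE) and an adjusted p of 0.0016. Ranked by log2 difference among the 25165 probe sets, RAB21 stood at place 15 from the top at 3 d and at place 45 at 5 d. At 6 h the log2 difference was -0.66 ± 0.33 (SE), with an adjusted p of 0.57.

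The order of the RAB21 group means was LK at 6 h (39.8 units), CK at 3 d, CK at 6 h (68.4 units), CK at 5 d, LK at 3 d and LK at 5 d. The first 4 overlapped with their neighbours in this order, whereas CK at 5 d and LK at 3 d did not overlap, nor did LK at 3 d and LK at 5 d. The second probe set of the gene (of type at, the main one being of type s_at) gave the same calls. At 3 d its means were 29.3 ± 14.8 units (CK) and 109 ± 17.4 units (LK), a ratio of 3.72 (adjusted p = 0.0019). At 5 d they were 57.6 ± 14.8 and 181 ± 46.1 units (3.15-fold, adjusted p = 0.0046). A probe set of type s_at can bind several transcripts, and the pair correlated with r = 0.989 over the 18 arrays.

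**Figure D1:**
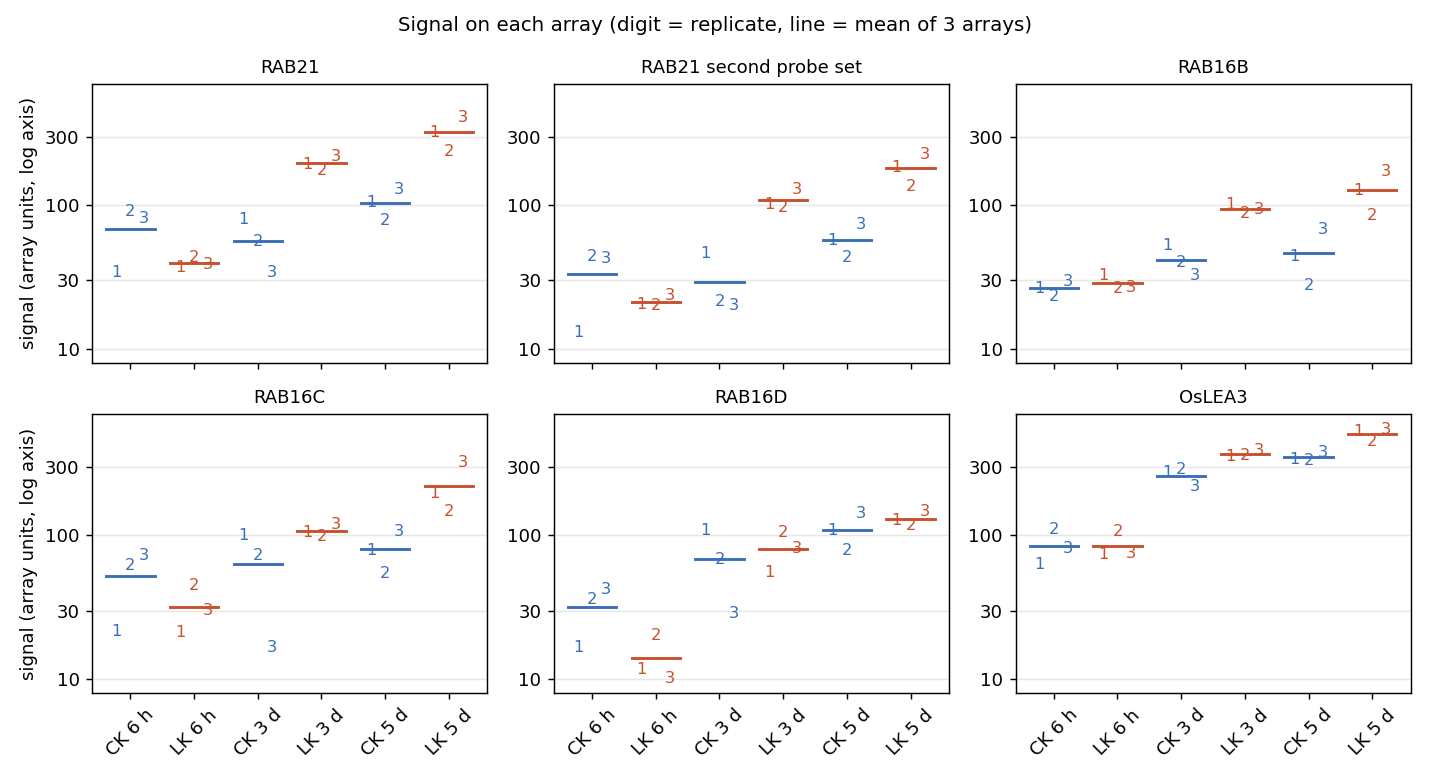
Signal of each dehydrin and LEA probe set on each array, on a log axis in array units, by treatment and time, with blue digits for the replicates on K+-replete solution (CK), red digits for those without K+ (LK) and a line at the mean of 3 arrays. RAB21 and RAB16B readings without K+ lie above all CK readings of the same time at 3 d and 5 d. This holds for 18.3% and 19.3% of all tested probe sets. OsLEA3 also climbs in CK roots, from 84.8 units at 6 h to 349 at 5 d.

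RAB16B, a close relative of RAB21 in the same gene cluster, read close to the array medians in K+-replete roots at 6 h. Its CK arrays read 26.6, 23.1 and 29.7 units at that time and its LK arrays 32.7, 26.2 and 26.8. At 3 d the CK arrays read 52.7, 39.9 and 32.2 units and the LK arrays 100.9, 87.7 and 93.1. At 5 d the CK arrays read 43.8, 27.8 and 67.7 units and the LK arrays 127, 84.7 and 173. The groups did not overlap at 3 d or 5 d, as was the case with LK above CK for 18.3% and 19.3% of all tested probe sets. RAB16B rose 2.26-fold at 3 d, from 41.6 ± 10.3 to 93.9 ± 6.62 units (SD, n = 3, adjusted p = 0.0066), and 2.76-fold at 5 d, from 46.4 ± 20.1 to 128 ± 44.1 units (adjusted p = 0.00070). The log2 differences were 1.2 ± 0.27 (SE) and 1.5 ± 0.27 (SE). Close to the array median, background can be a large part of a signal, and no detection calls were used here. The size of these ratios is therefore uncertain. With log2 of signal plus 32, the RAB16B log2 differences were 0.78 at 3 d and 1.02 at 5 d. The lowest RAB16B mean was that of CK roots at 6 h (26.5 units), followed by LK at 6 h (28.6 units), CK at 3 d, CK at 5 d, LK at 3 d and LK at 5 d. In this order only CK at 5 d and LK at 3 d did not overlap.

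RAB16C and RAB16D belong to the same cluster. RAB16C read 100.05, 73.2 and 16.7 units on the CK arrays at 3 d and 105.5, 98.4 and 119.6 on the LK arrays, so that the groups overlapped and 1 CK array was far below the other two. At 5 d it read 79.1, 54.6 and 106.6 units in CK and 197, 147.6 and 322.6 in LK roots. These groups did not overlap, as was the case with LK above CK for 19.3% of all tested probe sets. The 5 d means were 80.1 ± 26.0 and 222 ± 90.2 units (SD, n = 3), a ratio of 2.78, with a log2 difference of 1.45 ± 0.54 (SE) and an adjusted p of 0.063. Its 95% interval ran from 0.31 to 2.59, and that at 3 d from -0.028 to 2.26 around 1.11. The RAB16C ratio at 5 d was close to the 2.76 of RAB16B, and the standard errors of their log2 differences were 0.54 and 0.27. The 5 d value passed in 7 of 27 other settings. These were log2 of signal plus 32 (adjusted p = 0.015), a floor of 50 units (0.0041), a fit of only the arrays compared (0.0087), the replicate number as a block within times (0.021), and leaving out any of 3 arrays of another time, namely CK replicate 3 at 3 d, CK replicate 1 at 3 d and CK replicate 1 at 6 h (adjusted p = 0.014, 0.043 and 0.039). In the order of RAB16C means, LK at 6 h (32.1 units) came first, then CK at 6 h (52.2), CK at 3 d (63.3), CK at 5 d, LK at 3 d (108) and LK at 5 d, and only the last 2 neighbours did not overlap.

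RAB16D read 109, 68.3 and 28.9 units on the CK arrays at 3 d and 55.6, 105.7 and 81.7 on the LK arrays. At 5 d it read 108, 78.7 and 142 units in CK and 127.6, 118 and 148 in LK roots. The groups overlapped at both times, with ratios of 1.18 and 1.2 and adjusted p of 0.59 and 0.67. The 95% intervals of the log2 difference ran from -0.50 to 1.27 at 3 d and from -0.59 to 1.18 at 5 d, so a change as large as the 1.2 of RAB16B at 3 d lies inside the first interval and just outside the second. Without CK replicate 3 at 3 d the log2 difference of that time turned to -0.14. At 6 h RAB16D read 16.7, 36.0 and 42.3 units in CK and 11.7, 20.3 and 10.1 in LK roots, a log2 difference of -1.14 ± 0.42 (SE) with an unadjusted p of 0.015 and an adjusted p of 0.36. Its LK signals at 6 h lay below the array medians and near the floor of 10 units, and the difference was -0.45 with log2 of signal plus 32 and 0 with a floor of 50 units. RAB16D had its lowest mean in LK roots at 6 h (14.0 units), followed by CK at 6 h, CK at 3 d (68.8), LK at 3 d (81.0), CK at 5 d and LK at 5 d (131), and every neighbouring pair in this order overlapped.

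OsLEA3 (gene symbol LEA19), the LEA gene of the set, had a mean signal over the groups of 276 units. At 6 h it read 63.0, 110.7 and 80.6 units in CK and 73.8, 106 and 74.9 in LK roots, and the means were 84.8 ± 24.1 and 84.9 ± 18.3 (SD, n = 3). At 3 d it read 272, 288.6 and 219 units in CK and 351, 362 and 387 in LK roots. At 5 d it read 337, 333 and 377 units in CK and 531, 448 and 549.5 in LK roots. LK arrays lay above CK arrays at both later times, as for 18.3% (3 d) and 19.3% (5 d) of all tested probe sets. The ratio was 1.41 at 3 d (log2 difference 0.51 ± 0.17 (SE), adjusted p = 0.057) and the mean rose 1.46-fold at 5 d (log2 difference 0.54 ± 0.17 (SE), adjusted p = 0.029). The 3 d value passed in 7 of 28 other settings. These were log2 of signal plus 32 (adjusted p = 0.029), a fit of only the arrays compared (0.022), the replicate number as a block within or across times (0.0074 and 0.040), and leaving out CK replicate 1, CK replicate 2 or LK replicate 2 of 6 h (0.026, 0.023 and 0.038). The 5 d call was lost when CK replicate 1, CK replicate 2, LK replicate 1 or LK replicate 3 of that time was left out (adjusted p = 0.086, 0.086, 0.082 and 0.10), without the signal filter (adjusted p = 0.11) and with a floor of 50 units (adjusted p = 0.054). In the order of group means, CK and LK at 6 h were followed by CK at 3 d, CK at 5 d, LK at 3 d and LK at 5 d. CK at 5 d and LK at 3 d overlapped, and so did both groups at 6 h.

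**Figure D2:**
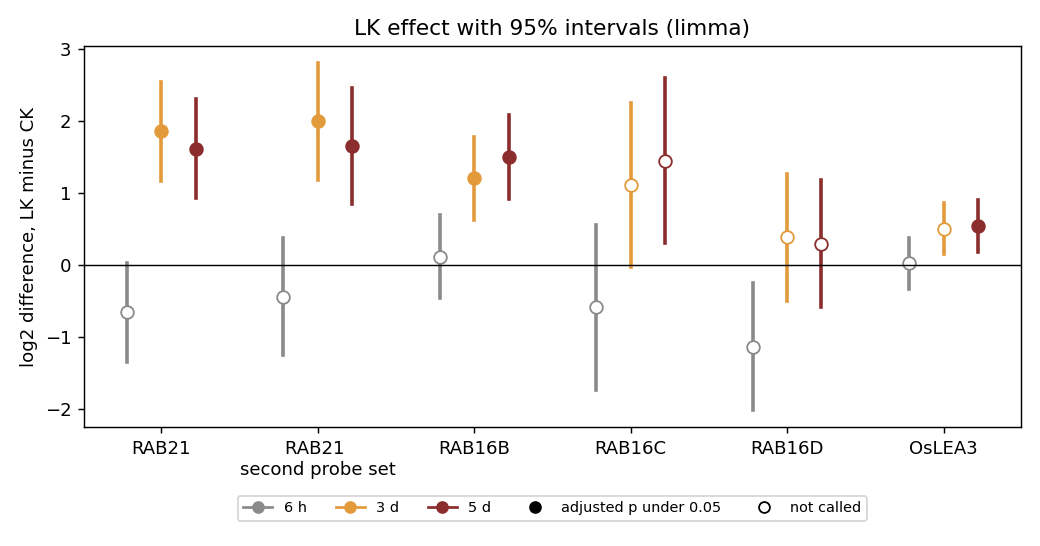
Log2 difference between roots without K+ (LK) and with K+ (CK) for each probe set at 6 h (grey), 3 d (orange) and 5 d (dark red), with 95% intervals from limma and filled points for an adjusted p under 0.05. At 3 d and 5 d the RAB21 and RAB16B points are filled and lie between 1.2 and 1.99, and all RAB16D intervals at these times include 0.

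The LK effect of RAB21 differed between the times. The 3 d effect exceeded the 6 h effect by 2.52 ± 0.46 (SE) on the log2 scale (limma interaction term, adjusted p = 0.0046), and the 5 d effect exceeded it by 2.28 ± 0.46 (SE) (adjusted p = 0.0040). Only 1 of the 5 genes passed between 6 h and 3 d, against 2.88% of all tested probe sets. RAB16B joined RAB21 between 6 h and 5 d, with a difference of 1.39 ± 0.39 (SE) log2 units (adjusted p = 0.030), so that 2 of 5 passed against 10.2%. The RAB16B call was lost without CK replicate 3, LK replicate 2 or LK replicate 3 at 6 h, without CK replicate 1 or 2 or LK replicate 1 or 3 at 5 d (adjusted p from 0.059 to 0.083), and without the signal filter (adjusted p = 0.13). No gene of the 5 passed between 3 d and 5 d (limma, and 0 had an unadjusted p under 0.05), where 1.03% of probe sets did. The 2 comparisons with 6 h share the 6 h arrays. Length of K+ starvation, seedling age and any difference in the hour of harvest cannot be told apart between times.

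In K+-replete roots alone, OsLEA3 rose from 84.8 units at 6 h to 260 ± 36.5 at 3 d, 3.07-fold (log2 difference 1.65 ± 0.17 (SE), adjusted p = 3.9e-06). By 5 d it had reached 349 ± 24.1 units, 4.12 times the 6 h level (log2 difference 2.08 ± 0.17 (SE), adjusted p = 2.0e-07). RAB16D rose 3.46-fold between CK at 6 h and CK at 5 d, from 31.7 ± 13.3 to 110 ± 31.6 units (log2 difference 1.86 ± 0.42 (SE), adjusted p = 0.0051). For these genes, the change with time on K+-replete solution was larger in value than the LK difference at any time, whereas for RAB21 the CK means at 6 h and 5 d were 68.4 and 104 units (log2 difference 0.70 ± 0.33 (SE), adjusted p = 0.16). RAB16B and RAB16C had log2 differences of 0.72 and 0.74 over the same span (adjusted p = 0.082 and 0.39). In all, 1 of 5 genes was called between CK at 6 h and at 3 d, against 15.1% of probe sets, 0 between CK at 3 d and at 5 d, against 9.2%, and 2 between CK at 6 h and at 5 d, against 16.8%. The 9.2% between CK at 3 d and at 5 d stand for 2314 probe sets, which became 803 and 622 without CK replicates 1 and 2 at 5 d, 1158 without CK replicate 1 at 3 d and 591 with only the arrays compared. The 16.8% stand for 4225 probe sets, or 2783 without CK replicate 1 at 5 d. Between CK at 3 d and 5 d, OsLEA3 and RAB21 had an unadjusted limma p of 0.021 and 0.011. The CK arrays at 5 d also enter the LK comparison at that time.

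The 5 genes varied more between replicate arrays than most tested probe sets. The spread within groups was 0.24 log2 units (SD) for OsLEA3 and 0.38, 0.47, 0.60 and 0.78 for RAB16B, RAB21, RAB16D and RAB16C, where the median of the tested probe sets was 0.13. RAB16C lay at percentile 99.9 of all tested probe sets in this respect. The readings of the 5 genes also moved together on some arrays. On the CK arrays at 3 d, replicate 3 gave the lowest reading for 5 of 5 genes, and on the CK arrays at 6 h replicate 1 gave the lowest for 4 of 5, RAB16B being the exception. At 5 d replicate 3 was highest and replicate 2 lowest for 5 of 5 genes, in CK and again in LK roots. After the group means had been taken off, the deviations of RAB16C and RAB21 correlated with r = 0.92 over the 18 arrays, those of RAB16C and RAB16D with r = 0.89 and those of RAB16D and RAB21 with r = 0.82. Pairs with RAB16B were looser, from 0.45 to 0.58. OsLEA3, on another chromosome, gave 0.77 with RAB21, 0.75 with RAB16C, 0.71 with RAB16D and 0.20 with RAB16B. The points of each pair share the array and its pool of seedlings, and shared hybridisation of related RAB16 transcripts was not tested. The share of all tested probe sets with the same order of replicates was not counted, and a shift of whole arrays was not tested. These values are a description with no test.

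**Figure D3:**
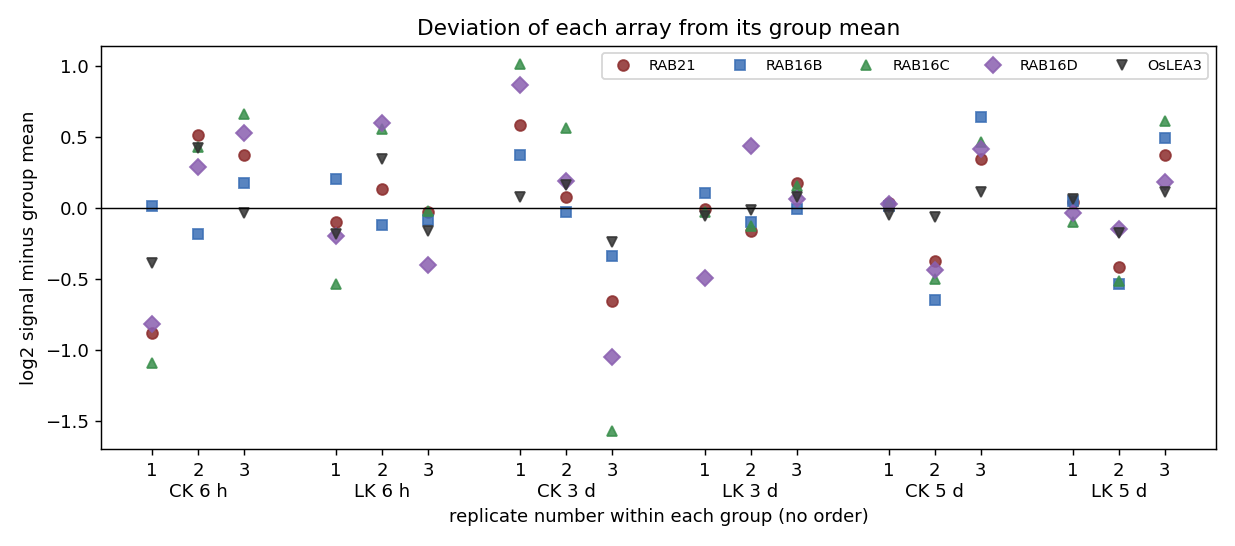
Deviation of each array from the mean of its group on the log2 scale, for the 5 genes, with the replicates of each group side by side (their numbers carry no order). In CK roots at 3 d all 5 genes are lowest in replicate 3, down to -1.57 for RAB16C, and at 5 d all are lowest in replicate 2 and highest in replicate 3 in both treatments. The order over all tested probe sets was not counted.

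Of the rest of the pathway, the phosphatases had the most called genes, though the lists held from 1 to 10 tested genes and most could not reach that count. Of 6 tested clade A PP2C genes, 4 were called higher in LK roots at 3 d and 4 at 5 d, against 8.5% and 10.5% of all tested probe sets. None was called lower, against 5.75% and 12.8%. The pathway lists, too, were chosen with earlier results of these data known. PP2C68 rose 2.73-fold at 3 d, from 70.1 ± 16.5 to 191 ± 43.1 units (SD, n = 3, adjusted p = 6.6e-05), and 1.70-fold at 5 d. OsPP2C30 rose 2.46-fold and 2.08-fold, OsPP2C09 1.51-fold and 1.57-fold, and ABIL1 1.22-fold and 1.32-fold. PP2C53 and OsPP2C08 did not pass. The median log2 difference of the 6 was 0.51 at 3 d and 0.53 at 5 d.

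Of 10 SnRK2 kinase genes, which stand between phosphatases and transcription factors, 0 were called at 3 d and 1 was higher at 5 d, near the 8.5% and 10.5% of all tested probe sets. It was OsSAPK4 (1.15-fold, adjusted p = 0.034), with list medians of -0.041 and 0.043. Of the listed bZIP genes, ABF2 and TRAB1 were both higher at 3 d (1.32-fold and 1.21-fold), against 8.5% of all tested probe sets. At 5 d TRAB1 was higher (1.33-fold, adjusted p = 0.00064), against 10.5%, and ABF2 was not called (ratio 1.14, adjusted p = 0.17). ABA8OX2, for an enzyme that breaks ABA down, rose 1.65-fold at 3 d (adjusted p = 0.0094) and 1.91-fold at 5 d (adjusted p = 0.00088), on group means of 34.2 to 72.1 units. ABA8OX1, for the same step, had ratios of 1.18 and 1.28 (adjusted p = 0.57 and 0.30). ABA1, for zeaxanthin epoxidase at the head of ABA synthesis, had ratios of 1.33 and 1.07 (adjusted p = 0.067 and 0.61). The receptor gene OsPYL11 had log2 differences of -0.22 ± 0.085 (SE) and -0.0080 ± 0.085 (SE) (adjusted p = 0.099 and 0.96). At 6 h none of these genes was called (limma).

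Dhn1, a dehydrin gene outside the RAB16 cluster that is also known as LIP9, rose from 1728 ± 56.8 to 2344 ± 90.1 units at 3 d (SD, n = 3, 1.36-fold, adjusted p = 5.1e-05) and 1.3-fold at 5 d (adjusted p = 0.00010). The seed LEA gene EM and the gene rab25 had group means of 9.67 to 31.2 units and were too weak to enter the tests. The LK effects of all tested genes of the pathway are drawn in the plot of pathway genes.

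**Figure D4:**
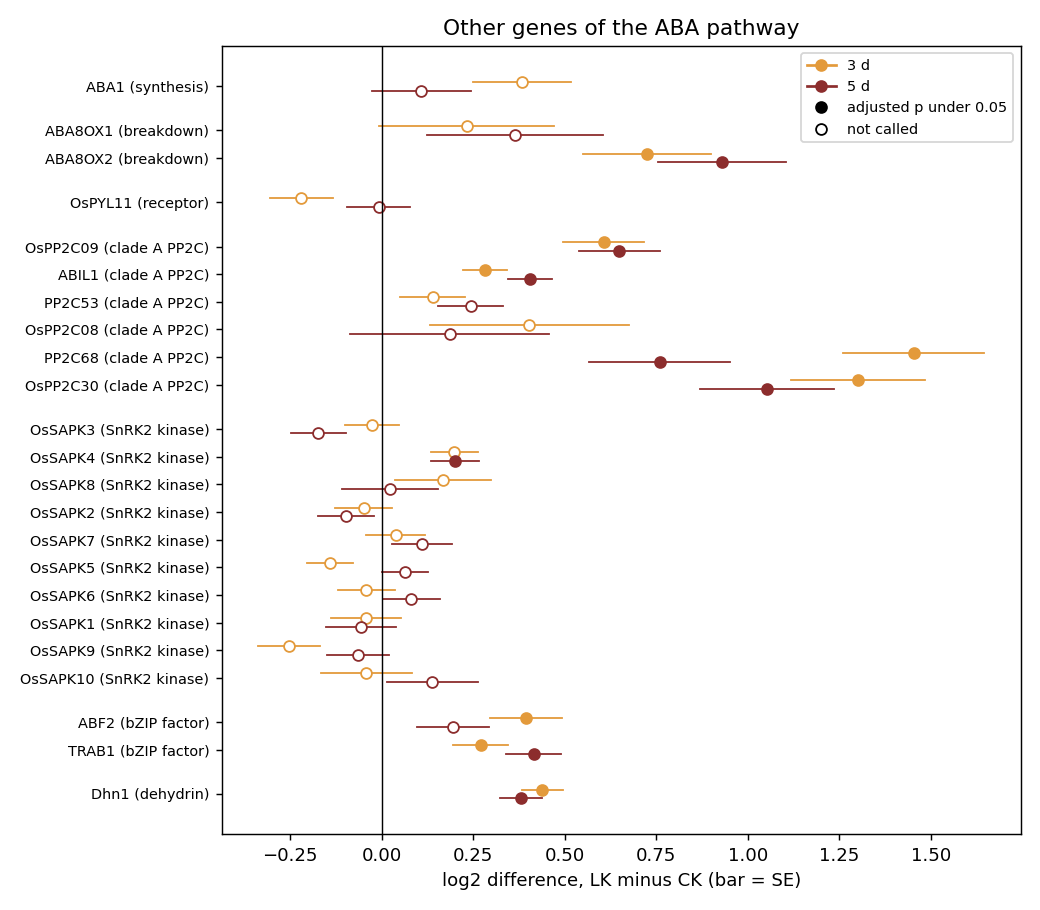
Log2 difference between LK and CK roots at 3 d (orange) and 5 d (dark red) for the other tested genes of ABA synthesis, breakdown, perception and response, with the standard error as a bar and filled points for an adjusted p under 0.05. PP2C68 (1.45 at 3 d) and OsPP2C30 (1.3) lie farthest to the right, while the SnRK2 kinase genes lie between -0.25 and 0.20.

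Among genes with a name, those whose log2 signals followed each gene most closely over the 18 arrays differed between the members. For RAB21 the first was OsPM19L1, for a plasma membrane protein of the AWPM-19 family, with r = 0.973. It was also the first for RAB16C (r = 0.907), before NIP1-1 (r = 0.866) and BZIP39 (r = 0.827), and the second for RAB16B (r = 0.927), which was followed by the heat shock factor gene HSF1 (r = 0.902) there. At 3 d OsPM19L1 had means of 29.0 (CK) and 70.5 (LK) units, and at 5 d of 39.2 and 115 units. It was picked for following these genes over the arrays of both treatments, so its LK difference is no separate result. hsp17.9, a small heat shock protein gene, was the first for RAB16B (r = 0.942) and the second for RAB21 (r = 0.905), and Cht1, a chitinase gene, the third for RAB21 (r = 0.887). For OsLEA3 the 3 closest were the aquaporin gene OsPIP1;3, ML3 and the clock gene CCA1, with r from 0.962 to 0.964. The CK means of CCA1 were 130 units (6 h), 780.5 units (3 d) and 1220 units (5 d). For RAB16D they were PORA, a gene of chlorophyll synthesis, ORR4 and OsICS, with r from 0.848 to 0.882. Over 18 arrays in 6 groups such values hold differences between groups as well as between arrays, and they carry no test.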

How the data were processed

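Roots of rice seedlings were profiled on 18 Affymetrix Rice Genome Arrays, 3 for each of 6 groups, and per the methods the 3 arrays of a group are biological replicates. The authors read the scanned arrays with GCOS 1.0 (MAS5) and, by the methods, then normalized all 18 arrays together in dChip. The deposited intensity values are 1 linear signal per probe set. The submitters' processing notes name only GCOS and MAS5, so which software gave the final signal is not settled. No detection calls or probe-level values were used. The number of arrays limits the precision.

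Signals under 10 were set to 10, log2 was taken, and probe sets in the upper 44% by mean log2 value were tested, 25165 of 57194. limma 3.58.1 in R 4.3.3 fitted the 6 group means with an intensity trend in the variance, and p-values were adjusted by the Benjamini-Hochberg method over all kept probe sets. Fold values are ratios of mean linear signals, and log2 differences come from the fit. The script was tested on simulated data. No per-sample columns were left unused (0).

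The members and lists were chosen with earlier results of these data known. Named were all members with all their probe sets, up to 4 called genes of each pathway list with the smallest adjusted p, uncalled genes of those lists for completeness (chosen after their values were seen), and the 3 named genes closest to each member by Pearson r. Gene names came from the platform annotation and RefSeq (ASM3414082v1). Of the probe sets, 22436 had 1 gene, 95 several and 34663 none. Alternatives were the filter, log transform, normalization, variance model, arrays in the fit, replicate block, threshold of the methods (1.2-fold with an unadjusted p under 0.05), other probe sets and each array left out.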

Additional observations from a re-analysis of the deposited data

Results flagged for a closer look

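For RAB21 and RAB16B, the difference between LK and CK roots was itself different between times by the interaction term in limma. For RAB21 the change in the LK effect from 6 h was 2.52 log2 units to 3 d and 2.28 to 5 d. The second RAB21 probe set gave 2.44 (adjusted p = 0.019) and 2.10 (adjusted p = 0.020). Without the signal filter its 2 calls were lost (limma, adjusted p = 0.12 and 0.10), while the main probe set kept them (0.047 and 0.034). For RAB16B the change from 6 h to 5 d was 1.39. All of these rest on the same 6 arrays at 6 h, where CK replicate 1 was low for RAB21.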

How the results depend on the processing

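The number of member genes called moved with the settings as follows. With the top 30% of signals, 1 gene was called for LK against CK at 3 d, 1 for the change in LK effect between 6 h and 5 d and 1 for CK at 5 d against 6 h, with fewer genes tested. Without a filter, 2 were called at 5 d and 1 for the change between 6 h and 5 d. With log2 of signal plus 32, 3 were called at 3 d, 4 at 5 d and 3 for the change between 6 h and 5 d. A floor of 50 gave 3 for that change, and 3 at 5 d with RAB16C in place of OsLEA3. Fitting only the arrays compared gave 3 at 3 d, 4 at 5 d and 2 for the change between 6 h and 3 d. With 1.2-fold and an unadjusted p, the count was 1 for LK at 6 h. The same rule added OsLEA3 for LK at 3 d and RAB16C for LK at 5 d. It gave 4 and 5 for the changes from 6 h to 3 d and to 5 d. For CK, 3 d against 6 h, 5 d against 3 d and 5 d against 6 h gave 3, 2 and 4. Leaving out single arrays gave 0 genes for LK at 6 h, 2 to 3 at 3 d and 2 to 4 at 5 d, 1 to 4 for the change between 6 h and 5 d, and 1 to 2, 0 to 1 and 2 to 3 for the CK comparisons in the same order.

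Same-numbered CK and LK arrays deviated with r from -0.094 to 0.26, over 0.1 in 4 of 9 pairs. Of 18 arrays, 11 correlated best with their own number among the 3 arrays of the other treatment at that time. The labels do not say what the numbers mean across treatments, so the main fit took no pairs. These values do not settle whether the arrays were paired. With the replicate number as a block within times, 3 genes were called at 3 d, with OsLEA3 added, 4 at 5 d, with RAB16C added, 2 for the change between 6 h and 3 d and 4 for that between 6 h and 5 d. A block within times could not be fitted for the CK comparisons.

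Of 1227 log2 differences of members under alternatives, 1164 kept direction and call, 14 lost the call, 27 gained it and 22 changed sign, none of them called. For the LK effect at 5 d minus 3 d, RAB16D changed sign with log2 of signal plus 32 (0.00062) and with a floor of 50 (0.17). Leaving out single arrays, that quantity ran from -0.53 to 0.43 for RAB16D, from -0.53 to 0.085 for RAB21, from -0.044 to 0.16 for OsLEA3, from -0.026 to 0.62 for RAB16B and from -0.17 to 1.12 for RAB16C. The LK difference ran from -0.17 to 0.23 for OsLEA3 at 6 h and from -0.14 to 0.82 for RAB16D at 3 d. CK at 3 d against 6 h ran from -0.44 to 0.89 for RAB16C and from -0.67 to 0.096 for RAB21, and CK at 5 d against 3 d from -0.22 to 0.42 for RAB16B and from -0.15 to 1.14 for RAB16C. The cause was not tested. Over all probe sets, 133 were called at 6 h (27 with only the arrays compared, 70 without a filter, 217 with the block across times, 1297 by 1.2-fold and 36 to 184 without single arrays) and 3588 at 3 d (2075 in a fit restricted to those arrays). The planned motif search was not run, as no promoter sequences were used here.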

Other observations

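The dehydrin cluster on chromosome 11 has 4 nearby genes with tested probe sets, 2 before RAB16D and 2 after RAB21 (order of assembly ASM3414082v1). Their log2 differences between LK and CK roots ran from -0.11 to 0.098 at 3 d and none was called, against 14.3% of all tested probe sets. At 5 d they ran from -0.27 to -0.10, and the only one called was lower (-0.21, adjusted p = 0.012), as were 12.8% of all tested probe sets. Whether they differ from the RAB16 genes was not tested.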
